A study of Mus musculus with 8 samples.

Results

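The kinetochore is the protein assembly that joins each centromere to spindle microtubules, and the spindle checkpoint holds anaphase back until every kinetochore is attached. A list of 41 mouse genes of these structures was followed by gene symbol through the deposited counts. Each of the 41 symbols matched a single row of the 55487 gene rows. They were read as 6 checkpoint genes, 10 genes of the KMN network (Knl1, Mis12 and Ndc80 complexes), 3 of the RZZ complex (Rod, Zw10 and Zwilch), 2 corona proteins, 5 of the chromosomal passenger complex with shugoshin, and 15 of the constitutive centromere. All 41 passed the filter on low counts, as did 14360 genes in all.

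The libraries are bulk Smart-seq2 preparations, in which cDNA from small amounts of RNA is amplified and cut with Tn5, of mouse haematopoietic stem cells sorted into lysis buffer. The genotype label is miR652-KD, read here as a knockdown of the microRNA miR-652, for 4 libraries and NTC, which the series defines as the non-target control, for the other 4. The row of the miR-652 hairpin held 0 to 5 counts a library, and this preparation does not measure the mature microRNA, so the knockdown was not checked. How it was made, the sort markers, strain, age and any pooling of animals are not given in the labels, nor are the sources of the replicates, so a p-value here covers the spread between libraries, which may be technical. The miR652-KD libraries held 14.68 to 19.89 M counts in genes and the NTC libraries 14.02 to 16.76 M, M being the SI prefix mega, with miR652-KD replicate 3 the deepest. All 10 stem cell markers examined, Kit, Ly6a and Procr among them, were detected, with summed levels of 2078 to 2216 CPM in miR652-KD and 2051 to 2502 CPM in NTC. Behind these sums, Kit was at 380 to 435 CPM in miR652-KD and 440 to 664 CPM in NTC, and Ly6a at 316 to 490 CPM in miR652-KD and 240 to 296 CPM in NTC, both without overlap (edgeR adjusted p = 0.782 and 0.598). CPM are counts scaled to a library of 1 M counts, summed over gene rows. Markers of other blood cells differed between libraries. The 8 erythroid markers summed to 19.5 to 2272 CPM in miR652-KD and 2292 to 5647 CPM in NTC, without overlap. The 7 neutrophil markers summed to 38.6 to 3946 CPM in miR652-KD and 10.8 to 13063 CPM in NTC, highest in NTC replicates 3 and 4 and next in miR652-KD replicate 1. Of the 4 T and NK cell markers, Cd3e, Cd3g and Ncr1 were at 0 in every library. The part of these other cell types in the differences below was not tested.

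In textbook terms, CENP-A nucleosomes mark the centromere and hold a network of constitutive proteins there throughout the cell cycle. The outer kinetochore is built on that base when cells enter mitosis, binds microtubules through the Ndc80 complex and serves as the platform on which checkpoint kinases make the inhibitor of the anaphase-promoting complex. Most haematopoietic stem cells rest outside the cycle, and transcripts of many of these genes accumulate in G2 and mitosis. In bulk libraries, fewer cells expressing a gene and less RNA per cell cannot be told apart.

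None of the 41 genes passed the test between miR652-KD and NTC, against 0.0418% of all tested genes (0.0279% higher and 0.0139% lower in miR652-KD; edgeR quasi-likelihood, adjusted p below 0.05). The smallest adjusted p among them was 0.598 (edgeR), shared by Cdca8, Spc24 and Pmf1. An unadjusted p below 0.05 was found for 6 of the 41, all with higher values in miR652-KD, which is 14.6% against 2.90% of all tested genes in that direction. None had lower values at that limit, against 3.09% of all tested genes. The 6 were Bub1, Mad2l1, Spc24, Pmf1, Cdca8 and Birc5. Without NTC replicate 1 their number was 3. DESeq2 run on all genes called 3 members, Cdca8, Spc24 and Pmf1, with adjusted p of 0.0274, 0.0294 and 0.0385, while 0.768% of all genes it tested were called. Run on the filtered genes, DESeq2 called Cdca8 alone of the members (adjusted p = 0.0426) and 0.426% of all.

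Log2 differences (miR652-KD minus NTC) were above 0 for 32 of the 41 genes and below 0 for 9, against 49.5% above 0 of all tested genes. They ran from -0.30 for Mad1l1 to 1.03 for Bub1. The median was 0.33, while that of all tested genes was 0.00. Without miR652-KD replicate 3 the median was 0.21, with 32 genes above 0. For single genes, leaving out a library in turn moved the log2 difference of 32 of the 41 by over 1.5 times, with a change of sign for 16. The 9 that stayed within that limit were Bub1, Mad2l1, Spc24, Spc25, Dsn1, Pmf1, Cdca8, Cenpk and Cenpl. Groups without overlap, miR652-KD being the higher, were found for 3 members, Spc24, Pmf1 and Cdca8, or 7.32% against 2.35% of all tested genes. No member had the opposite arrangement, which 2.15% of all tested genes had.

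**Figure D1:**
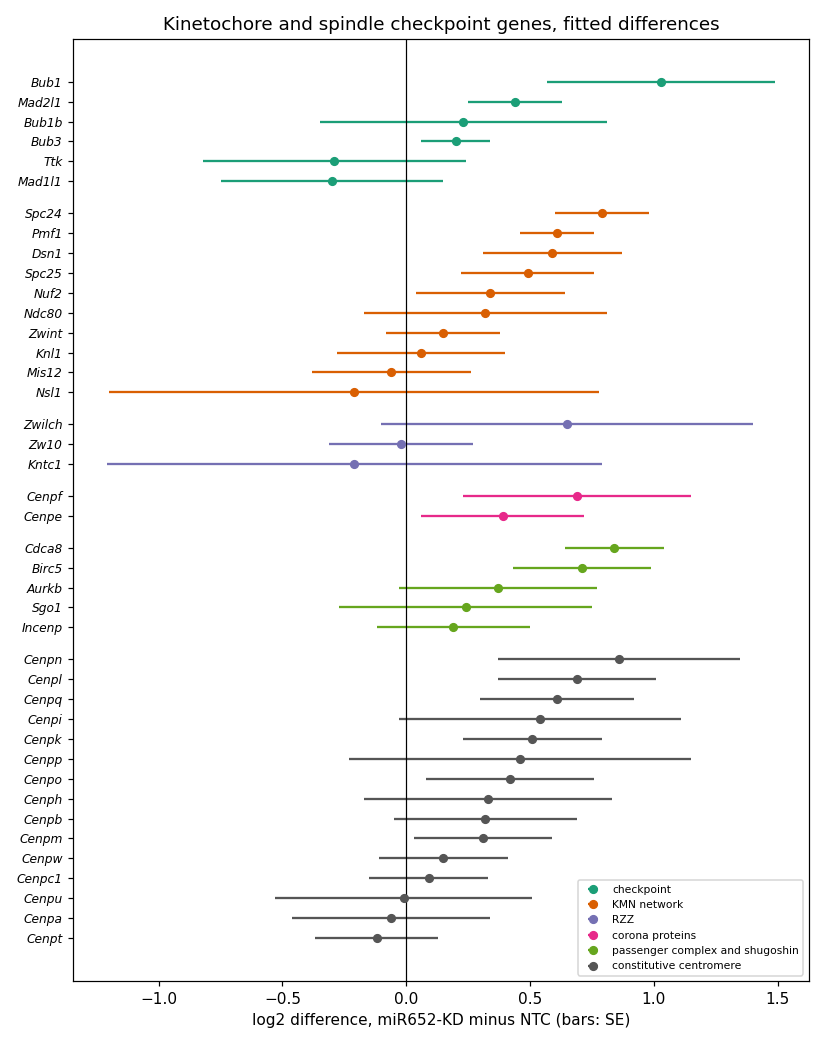
Log2 differences of the 41 genes (x axis, miR652-KD minus NTC, points with SE bars from the edgeR fit), grouped by role and sorted within each role. Of the points 32 lie right of 0, from Mad1l1 at -0.30 to Bub1 at 1.03, and none passed the test.

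Of the 6 checkpoint genes 4 had log2 differences above 0, and the median was 0.21. Leaving out NTC replicate 2 gave 0.09, and leaving out miR652-KD replicate 1 gave 0.37. The median was 0.07 with a replicate block in the edgeR fit and 0.01 with limma-voom, each with 3 of 6 above 0. Bub1 is a kinase that marks centromeric histone H2A and brings Bub1b to the kinetochore. It measured 9.27, 31.9, 28.0 and 16.4 CPM in the miR652-KD libraries (replicates 1 to 4, the order kept below). In the NTC libraries it measured 6.86, 9.70, 17.1 and 7.99 CPM. The groups overlapped, since miR652-KD replicates 1 and 4 lay under NTC replicate 3. Its log2 difference of 1.03 (SE 0.46, edgeR adjusted p = 0.833) was the highest among the 41 genes. Mad2l1, whose product in its closed form holds Cdc20 in the checkpoint complex, was at 73.6, 70.9, 95.2 and 87.1 CPM in miR652-KD, against 65.6, 75.0, 52.5 and 48.4 CPM in NTC. Only NTC replicate 2 reached the miR652-KD range, and the log2 difference was 0.44 (SE 0.19, edgeR adjusted p = 0.832).

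Bub3, the adaptor that docks Bub1 and Bub1b, was the steadiest of the checkpoint genes. It stood at 235, 295, 217 and 330 CPM in miR652-KD, against 218, 227, 233 and 261 CPM in NTC. The lowest of all libraries was miR652-KD replicate 3, and the log2 difference was 0.20 (SE 0.14, edgeR adjusted p = 0.965). The other checkpoint genes depended on single libraries. Bub1b, the BubR1 protein of the inhibitory complex, was at 61.4 CPM in miR652-KD replicate 3 and 9.33 to 20.5 CPM in the other miR652-KD libraries, against 9.56 to 28.4 CPM in NTC. Mad1l1, which brings Mad2 to unattached kinetochores, showed the reverse in that library, at 10.1 CPM against 39.1 to 65.7 CPM in the other miR652-KD libraries. Ttk, the kinase that starts checkpoint signalling by phosphorylating Knl1, was lowest in miR652-KD replicate 1 at 2.93 CPM. Log2 differences were 0.23 for Bub1b, -0.30 for Mad1l1 and -0.29 for Ttk, and each turned its sign when a single miR652-KD library was left out: replicate 3 for Bub1b (-0.63) and Mad1l1 (0.02), replicate 1 for Ttk (0.02).

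In the KMN network 8 of 10 log2 differences were above 0; their median was 0.33, and 0.19 once miR652-KD replicate 3 was left out. Spc24, which with Spc25 anchors the Ndc80 complex to the inner kinetochore, was at 90.5, 87.5, 139 and 119 CPM in miR652-KD and at 55.0, 61.9, 77.8 and 58.0 CPM in NTC. Every miR652-KD library lay above every NTC library. Means were 109 ± 24.5 CPM in miR652-KD and 63.2 ± 10.1 CPM in NTC (SD, n = 4 each), and the log2 difference was 0.79 (SE 0.19, edgeR adjusted p = 0.598). Pmf1, the Nnf1 subunit of the Mis12 complex that bridges Ndc80 to the centromere, was at 129, 150, 138 and 131 CPM in miR652-KD and at 69.1, 96.6, 106 and 87.2 CPM in NTC. Here too the groups did not overlap, and the 4 miR652-KD values were close together. Means were 137 ± 9.55 CPM in miR652-KD and 89.6 ± 15.6 CPM in NTC (SD, n = 4 each), and the log2 difference was 0.61 (SE 0.15, edgeR adjusted p = 0.598).

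Dsn1, another Mis12 complex subunit and a target of Aurora B, was at 27.9, 33.4, 17.4 and 34.7 CPM in miR652-KD, against 20.2, 20.7, 15.9 and 18.9 CPM in NTC. For Dsn1 it was miR652-KD replicate 3 that lay within the NTC range, and the log2 difference was 0.59 (SE 0.28, edgeR adjusted p = 0.848). The remaining subunits of these complexes had smaller differences and overlapped between groups. In the Ndc80 complex Spc25 had a log2 difference of 0.49, Nuf2 0.34 and Ndc80 0.32, the last at -0.14 without miR652-KD replicate 3. Of the Knl1 complex, Zwint had 0.15 and Knl1 itself, the scaffold on which checkpoint proteins gather, 0.06. Mis12 had -0.06. Nsl1, the remaining Mis12 complex subunit, was split within miR652-KD, at 20.6 and 17.8 CPM in replicates 1 and 4 and at 0.304 and 1.46 CPM in replicates 2 and 3, against 8.0 to 19.0 CPM in NTC. Its SE of 0.99 exceeded its log2 difference of -0.21.

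**Figure D2:**
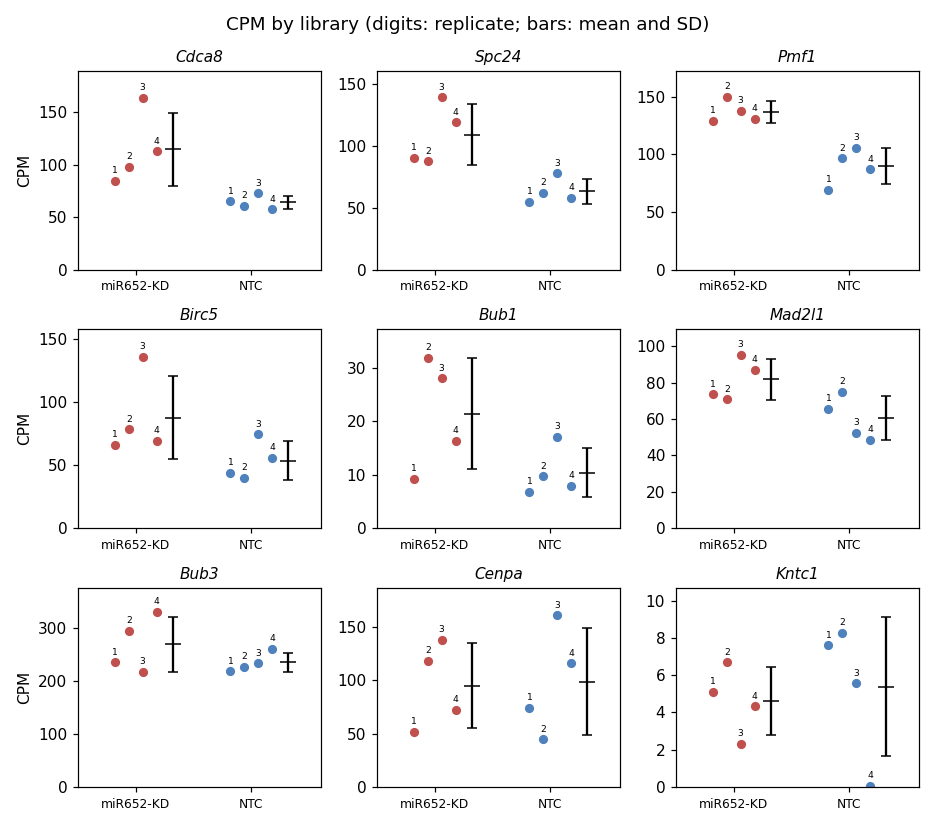
CPM (y axis, from 0) of 9 genes in each library, miR652-KD left and NTC right, with replicate numbers above the points and the mean with SD as a black bar. Cdca8, Spc24 and Pmf1 have no overlap between groups, Cenpa and Bub3 overlap widely, and Kntc1 is near 0 in NTC replicate 4.

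The RZZ complex carries dynein and Mad1 to unattached kinetochores. Its 3 genes did not move together, with 1 of 3 log2 differences above 0. Zw10 was at 37.6, 60.6, 27.5 and 29.0 CPM in miR652-KD, against 49.0, 38.6, 28.0 and 41.6 CPM in NTC, and its log2 difference was -0.02 (SE 0.29, edgeR adjusted p = 0.999). Zwilch stood at 18.7, 7.30, 14.9 and 7.04 CPM in miR652-KD, against 11.6, 8.35, 10.4 and 0.547 CPM in NTC. Kntc1, the Rod subunit, was at 5.11, 6.69, 2.31 and 4.33 CPM in miR652-KD, against 7.60, 8.28, 5.55 and 0.0683 CPM in NTC. In NTC replicate 4, Zwilch rested on 8 counts and Kntc1 on 1 count. The log2 differences of 0.65 (SE 0.75, edgeR adjusted p = 0.995) for Zwilch and -0.21 (SE 1.00, edgeR adjusted p = 0.999) for Kntc1 were 0.26 and -0.62 without that library.

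Both corona genes had values above 0 and overlapped between groups. Cenpf, a large coiled-coil protein of the outer kinetochore that accumulates in G2, was at 37.6, 73.8, 85.0 and 38.5 CPM in miR652-KD, against 22.4, 13.7, 50.2 and 59.4 CPM in NTC. NTC replicates 3 and 4 lay above miR652-KD replicates 1 and 4, and the log2 difference was 0.69 (SE 0.46, edgeR adjusted p = 0.944). It was 0.42 without NTC replicate 2, 1.04 without NTC replicate 4 and 1.71 with NTC replicates 3 and 4 both left out. Cenpe, the kinesin that carries chromosomes to the spindle equator, was at 20.4, 53.9, 51.7 and 35.0 CPM in miR652-KD, against 24.3, 22.5, 36.3 and 39.7 CPM in NTC. Its lowest value was in a miR652-KD library, and the log2 difference was 0.39 (SE 0.33, edgeR adjusted p = 0.989).

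The chromosomal passenger complex corrects faulty attachments through Aurora B kinase. All 4 of its genes and shugoshin had values above 0, and all 5 were highest in miR652-KD replicate 3. Their median log2 difference was 0.37. Leaving that library out brought it to 0.00, and leaving out NTC replicate 3 to 0.70. Cdca8, which encodes Borealin, the subunit that helps to place the complex on centromeres, was at 84.8, 98.2, 164 and 113 CPM in miR652-KD and at 65.4, 61.1, 72.7 and 57.7 CPM in NTC. The groups did not overlap, with means of 115 ± 34.8 CPM in miR652-KD and 64.2 ± 6.49 CPM in NTC (SD, n = 4 each). The log2 difference was 0.84 (SE 0.20, edgeR adjusted p = 0.598), or 0.63 without miR652-KD replicate 3.

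Birc5, the survivin subunit, was at 66.4, 78.4, 136 and 69.3 CPM in miR652-KD, against 43.9, 40.2, 74.6 and 56.0 CPM in NTC. NTC replicate 3 lay above miR652-KD replicates 1 and 4, and the log2 difference was 0.71 (SE 0.28, edgeR adjusted p = 0.804), or 0.42 without miR652-KD replicate 3. For Aurkb, the kinase itself, a single library carried the difference. It was at 51.4, 39.6, 114 and 39.9 CPM in miR652-KD, against 49.8, 49.7, 65.9 and 23.8 CPM in NTC, and the log2 difference was 0.37 (SE 0.40, edgeR adjusted p = 0.995). Without miR652-KD replicate 3 the value was -0.11. Incenp, the scaffold of the complex, had a log2 difference of 0.19, and Sgo1, the protector of centromeric cohesion, one of 0.24. Without the same library they were at 0.00 and -0.24.

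Of the 15 constitutive centromere genes 12 had log2 differences above 0 and 3 below. Their median was 0.33, and 0.21 with miR652-KD replicate 3 left out. None of them had an unadjusted p below 0.05 (2.90% of all tested genes higher and 3.09% lower), and all 15 overlapped between groups (2.35% and 2.15% of all tested genes did not), so that a count of 0 among 15 lies near those shares. Cenpl, which with Cenpn binds the CENP-A nucleosome, was at 40.6, 30, 23.8 and 44.3 CPM in miR652-KD, against 18.4, 17.3, 34.0 and 16.3 CPM in NTC. NTC replicate 3 alone reached the miR652-KD range, and the log2 difference was 0.69 (SE 0.32, edgeR adjusted p = 0.846). Cenpq, of the CENP-O complex, was at 35.2, 33.3, 46.4 and 43.1 CPM in miR652-KD, against 15.8, 40.4, 20.9 and 26.0 CPM in NTC. There NTC replicate 2 was the library within the miR652-KD range, and the log2 difference was 0.61 (SE 0.31, edgeR adjusted p = 0.864). Cenpk, of the CENP-H and CENP-I complex, was at 27.5, 26.2, 18 and 29.3 CPM in miR652-KD, against 21.7, 20.6, 15.7 and 13.3 CPM in NTC. Its exception was miR652-KD replicate 3, and the log2 difference was 0.51 (SE 0.28, edgeR adjusted p = 0.904).

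The other members of these complexes had values from 0.86 down to below 0. Cenpn had a log2 difference of 0.86, with 3.76 CPM in NTC replicate 4 against 13.4 to 21.2 CPM in the other NTC libraries. In the CENP-H and CENP-I complex Cenpi had 0.54, Cenph 0.33 and Cenpm 0.31. With single libraries left out these ran from 0.08 to 1.17 for Cenpi, from 0.04 to 0.82 for Cenph and from 0.19 to 0.54 for Cenpm. In the CENP-O complex Cenpp had 0.46, Cenpo 0.42 and Cenpu -0.01, with leave-out ranges of 0.22 to 1.36, 0.21 to 0.63 and -0.30 to 0.52. Cenpb, which binds a short box in centromeric satellite DNA, had 0.32. Cenpa, the centromeric histone itself, was at 51.8, 118, 138 and 72.2 CPM in miR652-KD, against 74.0, 44.7, 161 and 116 CPM in NTC, the NTC range enclosing that of miR652-KD, with a log2 difference of -0.06. Cenpc1, the hub that links CENP-A to the Mis12 complex, had 0.09. Cenpt and Cenpw, histone-fold proteins that give the Ndc80 complex a further anchor, had -0.12 and 0.15. Of these, Cenpa, Cenpc1 and Cenpt changed sign when a library was left out. Exons overlap those of genes on the opposite strand over 26.7% of the exonic length of Cenpu (Primpol), 19.0% of Cenpo (Adcy3) and 12.3% of Cenpp (Ippk). The strand setting of the counting is not given in the sources used here, so these counts are uncertain.

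The constitutive centromere and the outer kinetochore with the checkpoint (21 genes of the checkpoint, KMN, RZZ and corona groups) had nearly the same median log2 difference, 0.32 for the outer group and 0.33 for the constitutive group. The difference of the medians, -0.01, was -0.29 without NTC replicate 2, where the medians were 0.20 and 0.49. The mean log2 CPM of the outer group was 4.95, 4.90, 5.13 and 5.12 in miR652-KD replicates 1 to 4, against 4.82, 4.75, 5.04 and 4.52 in NTC replicates 1 to 4. NTC replicate 3 lay above miR652-KD replicates 1 and 2. The mean of NTC replicate 4 includes Zwilch at -0.573 and Kntc1 at -2.375 log2 CPM, on 8 counts and 1 count. That of miR652-KD replicate 2 includes Nsl1 at -1.225 log2 CPM, on 5 counts. These outer means, and the differences from the constitutive means below, therefore rest in part on values near the floor. The mean log2 CPM of the constitutive group was 4.75, 4.79, 4.99 and 4.99 in miR652-KD, against 4.37, 4.65, 4.65 and 4.25 in NTC. On this measure the libraries of the constitutive group did not overlap. As summed CPM the picture was the other way round. The outer group summed to 1090 to 1286 CPM in miR652-KD and 897 to 1049 CPM in NTC, without overlap. In the constitutive group miR652-KD replicate 1, at 524 CPM, lay under NTC replicate 3, at 558 CPM. Which group overlapped thus depended on the measure. Within each library, the outer mean minus the constitutive mean was 0.15 ± 0.04 in miR652-KD and 0.30 ± 0.16 in NTC on the log2 scale (SD, n = 4 each). The ranges overlapped, from 0.11 to 0.21 in miR652-KD and from 0.10 to 0.45 in NTC. These are descriptions of chosen lists, and no test was made on them.

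**Figure D3:**
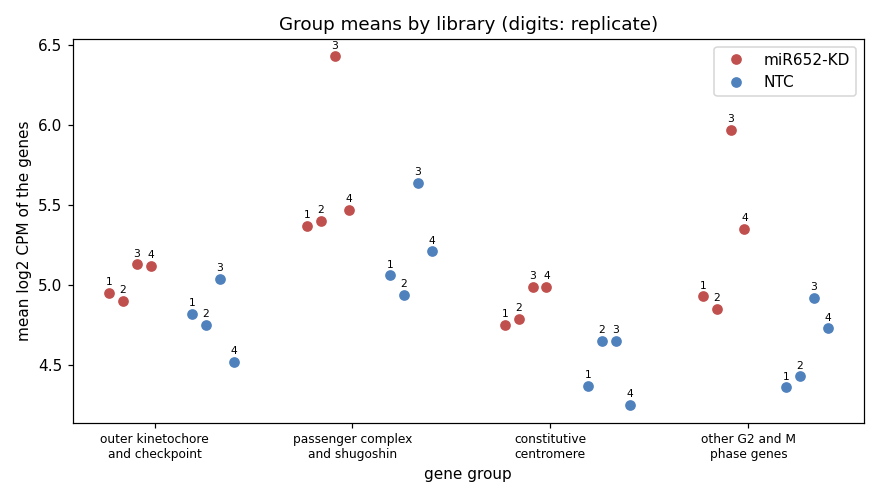
Mean log2 CPM (y axis) of 3 member groups and of 23 other G2 and M phase genes in each library, miR652-KD left and NTC right, digits naming the replicate. Replicate 3 of miR652-KD stands high in the passenger complex (6.43) and in the other G2 and M phase genes (5.97). In the outer kinetochore (5.13) and the constitutive centromere (4.99) it is level with replicate 4 of miR652-KD (5.12 and 4.99).

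Libraries differed within a group as well as between groups. Of the 41 genes 16 had their highest CPM in miR652-KD replicate 3, and 11 had their lowest in NTC replicate 4. By role, replicate 3 of miR652-KD was highest for 5 of 5 passenger complex and shugoshin genes, 4 of 10 KMN genes, 2 of 6 checkpoint genes and 4 of 15 constitutive genes. Replicate 4 of miR652-KD was highest for 5 of the 15 constitutive genes. Summed over the 41 genes the level was 1866, 2063, 2425 and 2064 CPM in miR652-KD and 1577, 1521, 1879 and 1738 CPM in NTC. NTC replicate 3, the highest of its group, lay just above miR652-KD replicate 1. That NTC library and NTC replicate 4 had the highest neutrophil marker sums, 8527 and 13063 CPM, while miR652-KD replicate 1 had 3946 CPM and NTC replicate 2 had 2110 CPM. With NTC replicates 3 and 4 left out, the median log2 difference of the 41 genes was 0.48, and 33 were above 0.

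**Figure D4:**
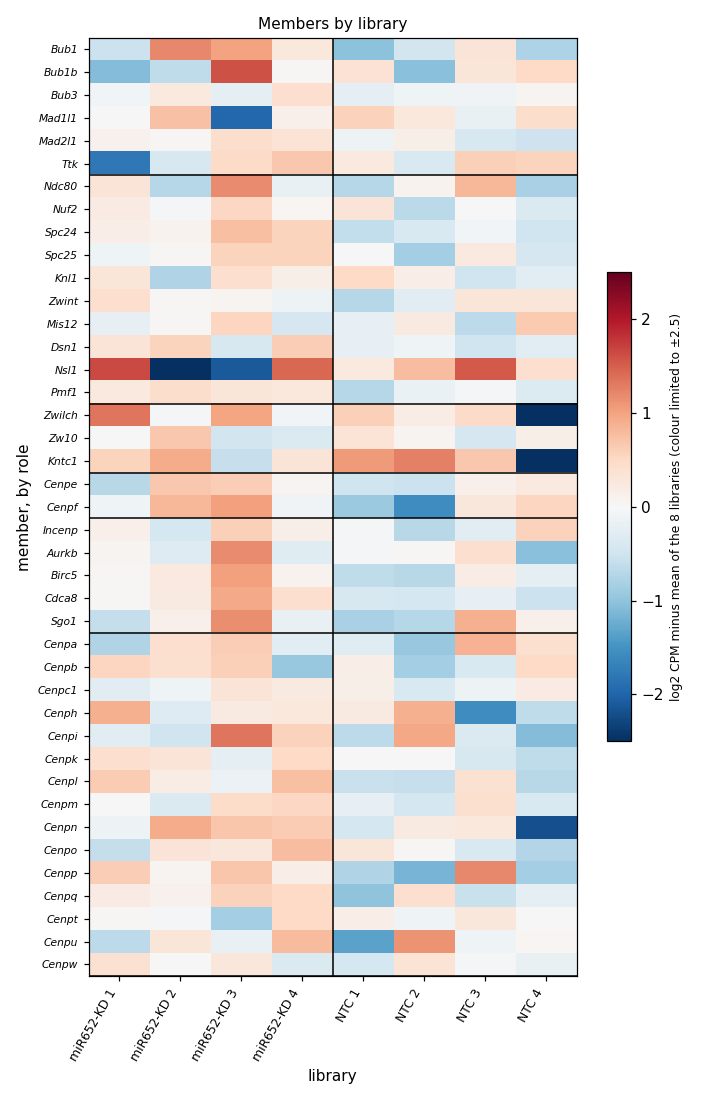
Log2 CPM of each gene minus its mean over the 8 libraries (colour, limited to ±2.5), with libraries in columns, miR652-KD left of NTC, and genes in rows by role. Replicate 3 of miR652-KD is red across the passenger complex rows, and Zwilch, Kntc1 and Cenpn are dark blue in NTC replicate 4.

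In 4 companion lists of genes that act with the kinetochore, 0 of 87 passed the threshold (edgeR adjusted p of at least 0.522), against 0.0418% of all tested genes. DESeq2 on all genes called 3 of them, Dnajc9, Anln and Ckap2l (adjusted p = 0.0175, 0.0175 and 0.0279), and on the filtered genes Dnajc9 alone (adjusted p = 0.0302). Of all genes tested in these 2 DESeq2 fits, 0.768% and 0.426% were called. Among 23 other genes of G2 and M phase, 21 log2 differences were above 0 (91.3%, against 49.5% of all tested genes). Their median was 0.73. Groups without overlap, higher in miR652-KD, were found for 7 of them (30.4%, against 2.35% of all tested genes). In that list 11 had an unadjusted p below 0.05, all higher in miR652-KD, or 47.8% against 2.90% of all tested genes. Leaving out miR652-KD replicate 3 gave a median of 0.42 with 5 such genes, and leaving out NTC replicate 1 gave 7 such genes. Anln, the cleavage furrow protein anillin, had 23.1 ± 4.89 CPM in miR652-KD and 9.20 ± 2.53 CPM in NTC (SD, n = 4 each), a log2 difference of 1.33 without overlap (edgeR adjusted p = 0.598). Ckap2l, a spindle protein, had 29.8 ± 10.1 CPM in miR652-KD and 13.3 ± 1.66 CPM in NTC (SD, n = 4 each), also without overlap (edgeR adjusted p = 0.598). Among 21 centromere loading and microtubule attachment genes 17 were above 0, with a median log2 difference of 0.16 and a range of 0.10 to 0.24 when single libraries were left out. Dnajc9, a histone chaperone, and Plk1, the mitotic kinase that docks at kinetochores, had the smallest p of that list. Dnajc9 was at 230 ± 31.7 CPM in miR652-KD and 152 ± 17.1 CPM in NTC (SD, n = 4 each), without overlap (edgeR adjusted p = 0.522). Plk1 was at 48.9 ± 19.6 CPM in miR652-KD and 19.2 ± 16.4 CPM in NTC (SD, n = 4 each), with overlap (edgeR adjusted p = 0.833).

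The anaphase-promoting complex, the ligase that the checkpoint restrains, lay closer to 0. Of 23 genes of that complex and its regulators 16 were above 0 (69.6%, against 49.5% of all tested genes). Their median log2 difference was 0.04 (0.04 to 0.11 when single libraries were left out). Among core subunits, Anapc11 had an edgeR unadjusted p of 0.0384 (adjusted p = 0.832). Cdc26 was lower in miR652-KD without overlap, at 67.4 to 87.1 CPM against 88.5 to 101 CPM in NTC. That arrangement was found for 2.15% of all tested genes. The 2 genes of smallest p, the second at 0.0379 (edgeR unadjusted), were not core subunits of the complex. Ube2c, its ubiquitin-conjugating enzyme, was at 58.3, 82.7, 108 and 49.6 CPM in miR652-KD and at 21.0, 32.7, 48.4 and 38.9 CPM in NTC, without overlap (edgeR adjusted p = 0.764). Its exons overlap those of Tnnc2 on the opposite strand over 22.8% of their length, so its counts are uncertain in the same way as those of Cenpu. Fbxo5, the inhibitor Emi1, was at 24.7, 19.1, 62.6 and 49.5 CPM in miR652-KD and at 14.1, 23.8, 26.4 and 14.2 CPM in NTC, with overlap (edgeR adjusted p = 0.832). For S phase, 16 of 20 genes lay above 0 (80.0%, against 49.5% of all tested genes). Their median log2 difference was 0.26, and 0.18 to 0.34 when single libraries were left out. An unadjusted p below 0.05 was found for 5 of the 20, all higher in miR652-KD, or 25.0% against 2.90% of all tested genes. Without miR652-KD replicate 1 there was 1 such gene with higher values. The 2 S phase genes of smallest p were Pola1, the catalytic subunit of DNA polymerase alpha, and Uhrf1, a hemimethylated DNA reader. Their edgeR adjusted p were 0.781 and 0.817.

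Levels were compared between genes as CPM per kilobase of exonic length, here as group means. That length merges the exons of all annotated transcripts of a gene, so the order of genes depends on the annotation. The highest in miR652-KD was Spc24 at 42.4, followed by Bub3 at 38.4, Pmf1 at 33.7 and Zwint at 32.6. In NTC the order at the top was Bub3 at 33.5, Zwint at 29.4, Spc24 at 24.5 and Cenpt at 22.3. At the other end stood Kntc1, at 0.577 in miR652-KD and 0.673 in NTC. The spread over all 8 libraries, as the coefficient of variation of CPM, was 16.1% for Bub3, 18.4% for Cenpc1 and 21.0% for Cenpw, the steadiest genes. It was 71.3% for Nsl1, 69.5% for Bub1b and 63.7% for Cenpi, the most variable. Subunits of the same complex could differ in spread, as Ndc80 at 55.3% and Nuf2 at 25.9% did.

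Promoters were examined for sequence features that the choice of members had not used. Cell cycle genes of late phases are known for a CHR element (the letters TTTGAA or TTCGAA) near the transcription start and for upstream CCAAT boxes. RefSeq windows (GRCm38.p6), reaching from 250 bases before to 50 bases after a start, were given for 36 of the 41 genes, in 40 windows. The genes with no window were Spc24, Nsl1, Zwilch, Incenp and Aurkb. Both strands were searched, and a CHR could overlap a CCAAT box. A CHR was found in 47.5% of the members' windows, against 19.2% of all 32851 windows, and CCAAT in 67.5%, against 37.4%. Both together were in 40.0% of the members' windows and in 7.52% of all. Counting only a CHR from 50 bases before the start onward, the shares were 35.0% and 5.31%. In that stretch the CHR was in 45.0% of 20 windows of the outer kinetochore and checkpoint group and in 17.6% of 17 windows of the constitutive group. For CCAAT the order was the other way, 60% in the outer group and 76.5% in the constitutive group. A match is a description of the letters and does not show a bound site.

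The promoters of Cdca8, Bub1 and Cenpa are shown because all of them hold CCAAT boxes upstream and a CHR just after the start, while their log2 differences were 0.84, 1.03 and -0.06. Each line gives 150 bases before and 30 bases after the annotated start, 5′ to 3′ on the gene's strand, with CHR and CCAAT letters of either strand in capitals (CCAAT reads ATTGG on the other strand). The stretches are chr4:124936888-124937067 (minus strand) for Cdca8, chr2:127831830-127832009 (minus strand) for Bub1 and chr5:30666736-30666915 (plus strand) for Cenpa.
Cdca8: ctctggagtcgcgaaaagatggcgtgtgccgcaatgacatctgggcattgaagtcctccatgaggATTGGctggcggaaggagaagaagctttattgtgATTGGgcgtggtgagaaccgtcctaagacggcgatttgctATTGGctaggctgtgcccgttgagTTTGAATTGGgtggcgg
Bub1: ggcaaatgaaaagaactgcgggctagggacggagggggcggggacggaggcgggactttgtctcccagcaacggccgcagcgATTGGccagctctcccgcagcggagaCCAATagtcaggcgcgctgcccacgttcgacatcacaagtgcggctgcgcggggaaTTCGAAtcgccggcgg
Cenpa: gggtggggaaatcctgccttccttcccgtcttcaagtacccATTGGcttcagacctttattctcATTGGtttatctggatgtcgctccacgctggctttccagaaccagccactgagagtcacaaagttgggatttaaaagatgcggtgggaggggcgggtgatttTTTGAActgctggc
With the start base as 0, the CHR begins at 13 in Cdca8, 14 in Bub1 and 16 in Cenpa. The CHR of Cdca8 shares its last base with a further CCAAT box of that gene. Genes with the same arrangement had log2 differences near 0 as well as the highest among the members.

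Sites for miR-652 in the members' own transcripts were looked up last. Both arms of the microRNA are shown in RNA letters (RefSeq, GRCm38.p6, chromosome X, plus strand, 142739020 to 142739043 for the 5p arm and 142739060 to 142739080 for the 3p arm), with the seed, bases 2 to 8, in capitals.
mmu-miR-652-5p: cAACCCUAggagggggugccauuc
mmu-miR-652-3p: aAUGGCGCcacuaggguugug
The longest annotated 3′ UTR of each gene (GENCODE M21) was searched for the complement of the seed. A 3p site was in 1 of 41 members (2.44%) and in 1.98% of 11507 tested genes with a 3′ UTR. A 5p site was in 5 of 41 members (12.2%) and in 8.42% of those genes. The 3p site was in Cenpf, 253 bases into its 3′ UTR, and is shown with the seed match in capitals.
Cenpf: gcagttaaatgggaaGCGCCATg
The 5p sites were in Cenpb, Bub3, Zw10, Birc5 and Incenp, and the one in Cenpb alone was followed by the A of an 8mer.
Cenpb: attttacaaaggaaaTAGGGTTa
The log2 differences of these genes were 0.69 for Cenpf, 0.71 for Birc5, 0.32 for Cenpb, 0.20 for Bub3, 0.19 for Incenp and -0.02 for Zw10. The members without overlap between groups, Cdca8, Spc24 and Pmf1, held no seed match in these 3′ UTRs. With a 5p site in 8.42% and a 3p site in 1.98% of tested genes, so few members cannot show a lack of sites.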

How the data were processed

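The authors deposited raw read counts, whole numbers for each gene, in 1 file per library with 55487 gene rows and 5 summary lines. Per the submitters' processing notes, HISAT2 2.1.0, HTSeq 0.11.2 and DESeq2 were used with mm10; which annotation release and strand setting they used is not given in the sources used here. Summary lines were left out: reads in no feature made 9.69% to 16.94% and ambiguous reads 8.94% to 12.28% of a file. Smart-seq2 has no molecular identifiers, so counts include amplified copies. Symbols came from GENCODE M21, which held 55394 of the identifiers. Tests used edgeR 4.0.16 (R 4.3.3) with TMM scaling (factors 0.981 to 1.03), filterByExpr (minimum count 10), robust quasi-likelihood fits and Benjamini-Hochberg adjustment over 14360 genes. SE is the log2 difference over the square root of F. CPM carry no TMM factor; mean log2 CPM do, with a prior count of 2. The procedure was tested on simulated data. Members, roles and lists were chosen with earlier results of these data known. Per-library values are given for the 3 members of smallest p per role (both corona genes), and the 2 genes of smallest p per companion list are named. Alternatives were RLE or no scaling, no filter, 5 CPM in 4 libraries, limma-voom (limma 3.58.1), DESeq2 1.42.0, a replicate block and left-out libraries.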

Additional observations from a re-analysis of the deposited data

Results flagged for a closer look

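In 6 of 48 groups of 4 examined, the most extreme library stood further from its neighbour than the 95% critical value of Dixon's test, which chance passes in about 1 group in 20. Aurkb at 114 CPM and Birc5 at 136 CPM were the highest of miR652-KD, both in replicate 3, with the next libraries at 51.4 and 78.4 CPM. The passenger complex and shugoshin mean of that library, 6.43 log2 CPM, stood apart from 5.37 to 5.47 in the other miR652-KD libraries. Cenpl at 34.0 CPM in NTC replicate 3 stood apart from 16.3 to 18.4 CPM in the other NTC libraries. The checkpoint mean of miR652-KD replicate 1 was 4.59 log2 CPM, against 5.35 to 5.46 in the other miR652-KD libraries. The RZZ mean of NTC replicate 4 was 0.81 log2 CPM, against 3.58 to 4.00 in the other NTC libraries. The passenger complex mean includes Aurkb and Birc5, and what set the libraries apart was not tested.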

How the results depend on the processing

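The count of genes past the threshold, 6 in the edgeR fit, was 0 with the replicate block (733 at an unadjusted p below 0.05), 0 with each library left out (range 0 to 0), and 0 with NTC replicates 3 and 4 left out together (884). It was 129 with DESeq2 and 61 with DESeq2 on the filtered genes, a setting added after seeing the data. Members past the threshold, 0 in the edgeR fit, numbered 3 and 1 in these DESeq2 fits and 0 in every other setting, with 3 to 8 at an unadjusted p below 0.05. The members' median log2 difference stayed between 0.21 and 0.48. The outer minus constitutive difference of medians ranged from -0.29 to 0.03 when single libraries were left out, so its sign is not settled, and the cause was not tested. Among named members, Zw10, Kntc1 and Aurkb changed sign in some settings. Same-numbered libraries did not deviate together (correlations -0.033, -0.014, -0.032 and -0.010), so the numbers were not taken as pairs; the block gave a members' median of 0.32. RLE scaling, no scaling, both filters and limma-voom left the direction of all members' median as it was. Counting error is widest for Kntc1, Zwilch and Nsl1, which rested on 1, 8 and 5 counts in a library.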
